A study of Rattus norvegicus with 120 samples.

Results

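The miR-379/410 cluster is a run of microRNA (miRNA) hairpins in the imprinted Dlk1-Dio3 region of rat chromosome 6. Its members were taken as the rat miRNAs, of any letter and either arm, that carry 1 of the numbers of the cluster's hairpins in their name. A member was used at a stage when its raw reads summed over all libraries of that stage exceeded 500. Of 64 mature IDs with such a number, 52 passed at the acute stage, 53 at the latent stage and 55 at the chronic stage, out of 383, 406 and 442 miRNAs of any name that passed. The same 52 IDs passed at all 3 stages, and 55 passed at 1 stage or more. miR-381-5p passed only at the latent and chronic stages, miR-377-5p and miR-410-5p only at the chronic stage, and miR-381-3p at none, with 283, 126 and 211 reads at the 3 stages. Just inside the limit at the chronic stage were miR-377-5p with 512 reads and miR-410-5p with 602, and just outside it was miR-487b-5p with 347. Small RNA from the entire hippocampus of male Wistar rats was sequenced, 1 library per rat. All rats, controls included, received LiCl. Status epilepticus (SE) was then started with pilocarpine, a muscarinic agonist, at postnatal day 12 (infancy SE rats) or 60 (adult SE rats), while infancy controls and adult controls of the same ages received saline, and paraldehyde was given after the start of convulsions to limit deaths. Tissue was collected at 24 hours, called the acute stage, at 1 week, the latent stage, and at 3 months, the chronic stage. Libraries with counts came from 8 infancy SE rats, 9 infancy controls, 9 adult SE rats and 9 adult controls at the acute stage, from 10 rats of each group at the latent stage, and from 10 infancy SE rats, 9 infancy controls, 10 adult SE rats and 10 adult controls at the chronic stage. Per the study's methods, only rats whose seizures reached forelimb clonus entered the SE groups. Motor seizures were seen on video at the chronic stage in adult SE rats and in neither infancy SE rats nor controls. An adult SE rat without motor seizures was left out, as were an adult SE rat with a tumor and another with repeated generalized tonic-clonic seizures. Rats of the infancy groups were juvenile at the acute and latent stages. Infancy and adult groups therefore differed in onset age, in age at sampling and in the range of library numbers, and these cannot be told apart.

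In placental mammals the Dlk1-Dio3 region is imprinted, which means that its genes are read from only 1 of the parental chromosomes. The miRNA hairpins are cut from long noncoding transcripts of the maternal chromosome, while the protein genes Dlk1, Rtl1 and Dio3 are expressed from the paternal one. The miRNAs are abundant in brain, and in cultured rodent neurons the transcription factor Mef2 raises the whole cluster with synaptic activity. miR-134-5p, the member studied most, limits translation of the kinase Limk1 in dendrites and restrains the growth of dendritic spines, and its inhibition lowers seizures in rodent models. A miRNA recognises its targets mainly through its seed, bases 2 to 8 counted from the 5′ end, so the seed shows which members could share targets. The groups of the cluster's members by seed are therefore given before their levels.

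All 55 passing members matched a mature sequence of the RefSeq annotation of the rat assembly GRCr8. They come from 32 hairpins, all on the + strand. The mature arms span chr6:134543460-134579828, which is 36.4 kb, from miR-379-5p at the first position to miR-410-3p at the last. No 2 of the 55 share a seed, so every passing member forms a seed group of its own. Only miR-329-5p and miR-377-5p share bases 2 to 7, and partial matches at other seed bases were not counted. miR-329-3p, miR-376c-3p, miR-1193-3p, miR-410-3p and miR-377-5p each have a seed found in 1 rat miRNA outside the cluster. Seeds are also shared with cluster IDs that did not pass, by miR-376b-5p with miR-376c-5p, by miR-539-3p with miR-381-3p, by miR-299a-5p with miR-299b-5p, by miR-299a-3p with miR-299b-3p, and by miR-410-5p with miR-494-5p and miR-496-5p. The first set of sequences shows the 6 members with the widest gap between infancy and adult controls at the acute stage. They come from Mir412 (chr6:134579345-134579402), Mir666 (chr6:134552286-134552345), Mir380 (chr6:134546245-134546301) and Mir134 (chr6:134570320-134570380). RNA is written from the 5′ end, and capitals mark the seed.
miR-412-5p: uGGUCGACcagcuggaaagu
miR-412-3p: cUUCACCUgguccacuagccgu
miR-666-5p: aGCGGGCAcggcugugagag
miR-666-3p: gGCUGCAGcgugaucgccugcuc
miR-380-3p: uAUGUAGUaugguccacaucu
miR-134-5p: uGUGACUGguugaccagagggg
The second set shows the hairpins with 1 arm called higher and the other called lower between the control groups, at the acute or latent stage. Called means an adjusted p under 0.05, as set out below. The set also holds miR-329-3p, which with miR-376b-5p was called at the chronic stage. Their hairpins are Mir376b (chr6:134558876-134558933), Mir485 (chr6:134571076-134571136), Mir154 (chr6:134574366-134574423) and Mir329 (chr6:134547935-134547994). miR-376c-5p, which did not pass, is shown because its first 21 bases differ from those of miR-376b-5p at 1 position.
miR-376b-5p: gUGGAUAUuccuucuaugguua
miR-376c-5p: gUGGAUAUuccuucuauguuu
miR-376b-3p: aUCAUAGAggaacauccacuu
miR-485-5p: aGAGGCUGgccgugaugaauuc
miR-485-3p: cAUACACGgcucuccucucuuc
miR-154-5p: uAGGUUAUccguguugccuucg
miR-154-3p: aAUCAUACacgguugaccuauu
miR-329-3p: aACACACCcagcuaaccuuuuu
The authors counted reads with up to 1 mismatch, so reads of miR-376b-5p and miR-376c-5p may have been divided between the names, and likewise those of miR-300-3p and miR-381-3p, which differ at 1 of 18 bases. The same holds for miR-299a-3p and miR-299b-3p, which differ at 0 of 17 bases, and for miR-299a-5p and miR-299b-5p, which differ at 1 of 20. Both arms of miR-299a passed at all 3 stages and both of miR-299b at none. miR-376b-3p and miR-376a-3p differ at 3 of 21. Hairpins of the miR-376 group are edited from A to I inside the seed in human and mouse brain. An edited read with no other change would still be counted under its name, and editing was not measured here.

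Libraries held from 309975 to 4026890 miRNA reads at the acute stage, from 450644 to 8165312 at the latent stage and from 499094 to 28111631 at the chronic stage. At the acute stage adult SE libraries were shallower (median 562003 reads) than adult controls (median 1838745). Adult control 1-S8 was the exception among the controls, with 507283 reads against 1247085 to 4026890 in the others, and its library number falls among those labelled SE. Its label was followed. Rank correlations between any pair of libraries of a stage ran from 0.871 to 0.992, 0.912 to 0.995 and 0.871 to 0.994, and 0 pairs held identical counts. At the chronic stage 1 infancy SE library (3-S24) and 2 infancy control libraries (3-S32 and 3-S40) stood apart, with 44.7%, 39.87% and 40.76% of their reads on a single brain miRNA, miR-9a-5p, and with 1.43%, 1.47% and 1.54% on the cluster. Calls between the chronic control groups are given with and without them. So are the chronic member medians after infancy-onset SE and for the difference between onset ages. Other values that rest on them, such as the cluster shares, are given only with them. The 6 neuronal miRNAs, among them miR-124-3p and miR-9a-5p, summed to between 197700 and 714800 CPM (reads scaled to a common library total) in every library. At the acute, latent and chronic stages their medians were 246100, 394000 and 350600 CPM in adult SE rats and 299200, 460800 and 385000 CPM in adult controls. They were 340600, 474700 and 389500 CPM in infancy SE rats and 339500, 459600 and 357100 CPM in infancy controls. SE and control ranges of this sum overlapped at every stage. Some markers of other cells differed between groups and some did not. The 4 vessel miRNAs had acute medians of 21840 CPM in adult SE rats and 20670 CPM in adult controls. Their medians were 21030 CPM in acute infancy SE rats and 19790 CPM in acute infancy controls. The 4 oligodendrocyte miRNAs (miR-219a-5p, miR-219a-2-3p, miR-338-3p and miR-338-5p) summed to 617, 1602 and 2066 CPM (lowest, median and highest) in acute infancy controls, against 5264, 7401 and 8823 CPM in acute adult controls, and to 4440, 6046 and 7736 CPM against 4249, 7332 and 13110 CPM at the latent stage. miR-21-5p, of reactive glia, was at 5071, 29750 and 48000 CPM in acute adult SE rats and 4153, 12760 and 24580 CPM in acute adult controls. It was at 7951, 19580 and 26780 CPM in acute infancy SE rats and 3173, 5973 and 8284 CPM in acute infancy controls. The 6 myeloid miRNAs summed to 1070, 1597 and 1994 CPM in latent adult SE rats against 735, 930 and 1266 CPM in latent adult controls, and to 663, 857 and 1027 CPM against 464, 547 and 696 CPM at the chronic stage. In each of these lists 0 measured members were at 0. In bulk hippocampus fewer cells of a type and less RNA per cell cannot be told apart, and the part that cell mixture plays in the results on the cluster was not tested.

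The cluster held a larger share of miRNA reads in the juvenile hippocampus than in the adult one, and SE rats overlapped their controls in this share. At the acute stage it took 3.66, 3.96 and 5.38% of miRNA reads (lowest, median and highest) in infancy SE rats and 3.64, 4.24 and 4.53% in infancy controls, against 2.42, 2.64 and 3.76% in adult SE rats and 2.30, 2.46 and 2.71% in adult controls. Infancy controls lay wholly above adult controls, with a mean 1.64 times as high. At the latent stage infancy SE rats held 3.03, 3.22 and 3.82% and infancy controls 2.83, 3.36 and 3.87%, against 1.87, 2.05 and 2.40% in adult SE rats and 1.92, 2.09 and 2.32% in adult controls. The control groups again did not overlap, at a ratio of means of 1.59. The chronic-stage groups overlapped, with 1.43, 2.43 and 2.71% in infancy SE rats and 1.47, 1.87 and 3.33% in infancy controls, against 2.05, 2.32 and 2.48% in adult SE rats and 2.18, 2.59 and 2.79% in adult controls, a ratio of 0.807 between the control groups. SE to control ratios were 1.01, 0.979 and 1.08 in infancy-onset rats at the acute, latent and chronic stages. In adult-onset rats the ratios were 0.975 and 0.89 at the latent and chronic stages, and at the acute stage the means were 2.89% in SE rats and 2.49% in controls. The groups overlapped in all 6 comparisons. The chronic values include libraries 3-S24, 3-S32 and 3-S40, and the lowest share of both infancy groups comes from them. All shares are a description, with no test.

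**Figure D1:**
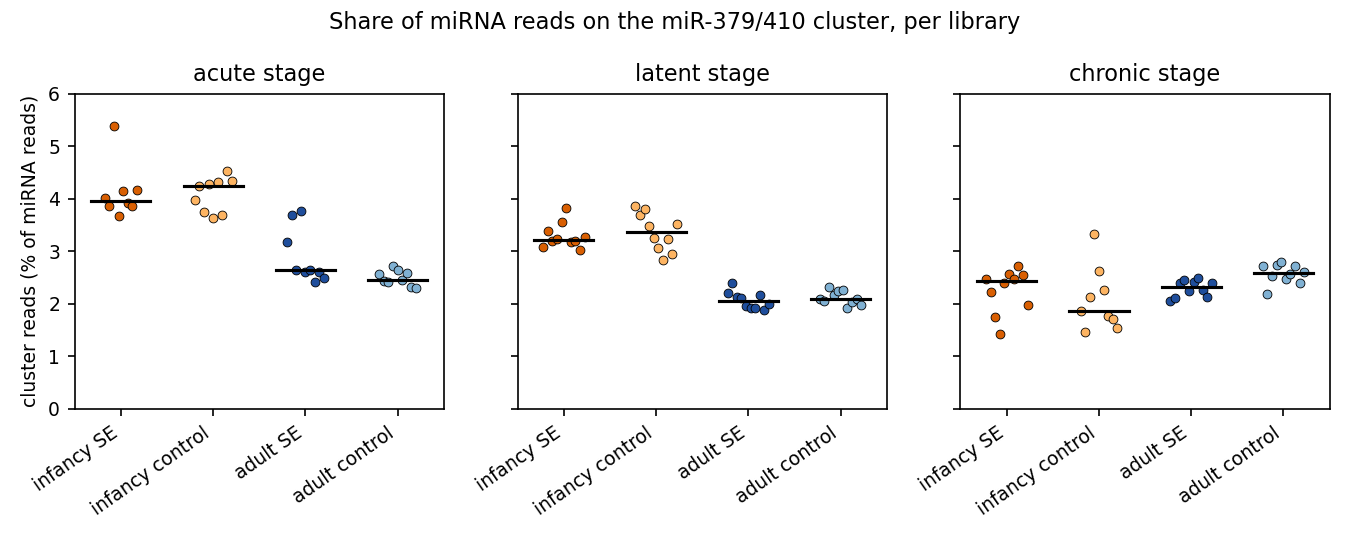
Share of miRNA reads on the miR-379/410 cluster in each library, in percent, at the acute, latent and chronic stages for infancy SE rats, infancy controls, adult SE rats and adult controls (points are rats, bars are group medians). Acute infancy controls lie between 3.64 and 4.53%, all above the acute adult controls at 2.30 to 2.71%, and the groups overlap at the chronic stage.

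Infancy controls were set against adult controls to see how the cluster differs with age in rats without SE. Levels are given as CPM after scaling by the trimmed mean of M values (TMM), and where 3 CPM values follow each other they are the lowest, the median and the highest of the group. A member is said to be higher or lower, or to rise or fall, only where the quasi-likelihood F test of edgeR gave an adjusted p under 0.05, with the Benjamini-Hochberg adjustment over all miRNAs of the comparison. At the acute stage 34 of 52 members were higher and 2 lower in infancy controls than in adult controls, while over all 383 miRNAs tested 34.7% were higher and 32.4% lower. The median log2 fold change was 0.52 over the members and 0.04 over all miRNAs. At the latent stage 32 of 53 members were higher and 2 lower, against 29.1% higher and 28.6% lower of all 406, with medians of 0.35 and 0.01. At the chronic stage 1 of 55 was higher and 1 lower, against 4.3% and 2.26% of all 442, with medians of -0.12 and -0.05. All infancy controls lay above all adult controls for 14 members at the acute stage and for 15 at the latent stage. They lay wholly below for 1 (miR-376b-5p) and 0 members, and at the chronic stage 0 members separated the control groups. Separation was counted for members only, so these counts do not set them apart from other miRNAs. Of all miRNAs, 67.1% at the acute and 57.6% at the latent stage were called in either direction.

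Both arms of Mir412 and of Mir666 were among the 6 members with the widest gaps at the acute and at the latent stage. miR-412-5p had 257, 394 and 479 CPM in acute infancy controls, against 49.4, 105 and 163 CPM in acute adult controls. The groups did not overlap, and the log2 fold change was 1.88 (standard error 0.16, adjusted p = 1.38e-12 by edgeR). Latent-stage levels of miR-412-5p were 345, 410.3 and 449 CPM in infancy controls and 78.4, 100.2 and 131 CPM in adult controls. These values separated too, with a log2 fold change of 2.02 (standard error 0.10, adjusted p = 8.84e-21 by edgeR), the smallest p of all members. Its 3p arm was scarce, with 17.5, 27.9 and 44.3 CPM in acute infancy controls and 1.24, 4.96 and 7.76 CPM in acute adult controls (log2 fold change 2.57, standard error 0.27). miR-412-3p was again separate at the latent stage, with a log2 fold change of 2.20 (standard error 0.16). miR-666-3p had 365, 560.3 and 999 CPM in acute infancy controls, against 155, 200.3 and 274 CPM in acute adult controls. No infancy control reached down to an adult one, and the log2 fold change was 1.46 (standard error 0.15, adjusted p = 1.22e-10 by edgeR). The scarce 5p arm of the same hairpin showed the largest fold change of any member, 2.78 at the acute stage (standard error 0.29), from 19.6, 32.9 and 43.6 CPM in infancy controls and 2.48, 5.49 and 7.69 CPM in adult controls. Latent-stage log2 fold changes of miR-666-5p and miR-666-3p were 1.99 and 1.59, both without overlap.

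miR-380-3p was among these 6 at both stages, and miR-134-5p at the acute stage. miR-380-3p had 1725, 2054 and 2559 CPM in acute infancy controls and 628, 724 and 874 CPM in acute adult controls, which did not overlap (log2 fold change 1.495, standard error 0.12). Its latent-stage levels were 231, 286 and 429 CPM in infancy controls and 68.9, 116 and 204 CPM in adult controls, with a log2 fold change of 1.32 (standard error 0.14). miR-134-5p, the repressor of Limk1, had 736, 921 and 1113 CPM in acute infancy controls, against 283, 328.98 and 503 CPM in acute adult controls. Every infancy control was above every adult control, 2.68-fold on the fitted scale (log2 fold change 1.42, standard error 0.12, adjusted p = 1.72e-12 by edgeR). Its latent-stage values were 301, 344 and 447 CPM in infancy controls and 148, 197.5 and 245 CPM in adult controls. They still did not overlap, at a log2 fold change of 0.84 (standard error 0.10). In chronic-stage rats miR-134-5p had 162, 225 and 320.2 CPM in infancy controls and 128, 220.5 and 720.5 CPM in adult controls, with full overlap and a log2 fold change of -0.18 (standard error 0.27). miR-323-3p was among the 6 widest only at the latent stage, with 1619, 1915 and 2590 CPM in infancy controls and 515, 757.7 and 1539 CPM in adult controls (log2 fold change 1.203, standard error 0.16).

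**Figure D2:**
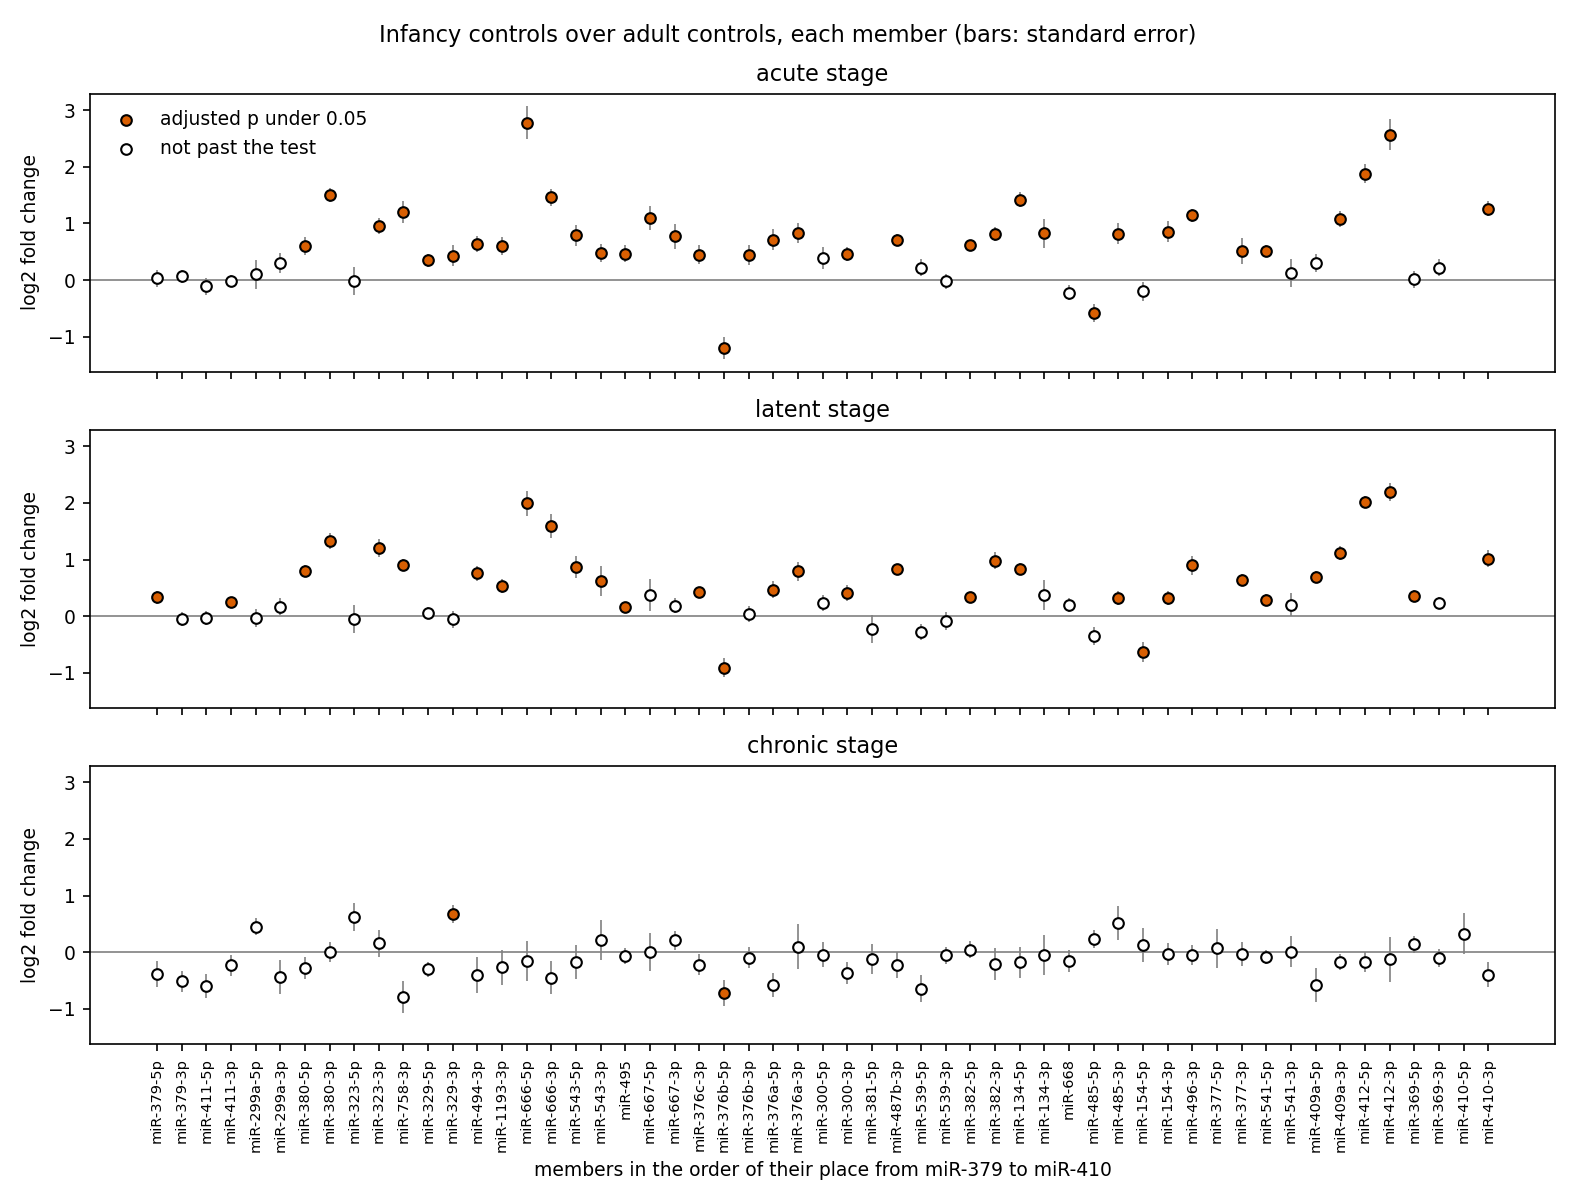
Log2 fold change of infancy controls against adult controls for each cluster member at the acute, latent and chronic stages, in their order along the chromosome from miR-379 to miR-410 (points are members, error bars are 1 standard error of the fold change, and filled points passed an adjusted p of 0.05). Most members lie above 0 at the acute and latent stages, with 34 of 52 and 32 of 53 higher, and scatter around 0 at the chronic stage.

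Some abundant members moved less than those with the widest gaps. miR-487b-3p, which leads the cluster in CPM in acute and latent adult controls, had 5424, 6329 and 7501 CPM in acute infancy controls and 3479, 3802 and 4749 CPM in acute adult controls. The ranges were apart, with a log2 fold change of 0.71 (standard error 0.10) at the acute stage and 0.82 (standard error 0.09) at the latent stage. Both values lay above the member medians of 0.52 and 0.35. miR-379-5p, the first member of the cluster, had 1627, 2797 and 3746 CPM in acute infancy controls and 1866, 2588 and 4301 CPM in acute adult controls. These overlapped (log2 fold change 0.04, adjusted p = 0.864 by edgeR), and at the latent stage the value was 0.33 (adjusted p = 0.0119 by edgeR). miR-411-5p, from the next hairpin, was at -0.11 and -0.03, neither of which passed. miR-369-3p, which binds AU-rich elements in human cells, was at 0.22 and 0.23 and did not pass either. Of the others fixed for naming, miR-410-3p was at 1.26 and 1.01, miR-376a-3p at 0.83 and 0.79, miR-541-5p at 0.52 and 0.29, miR-543-3p at 0.48 and 0.62, miR-495 at 0.47 and 0.17 and miR-376c-3p at 0.45 and 0.43, all of which passed at both stages. The latent-stage calls of miR-495 (adjusted p = 0.0483 by edgeR) and miR-543-3p (adjusted p = 0.0474 by edgeR) lay near the limit. Under 7 alternatives they were called in 2 and 4, and when each of 40 libraries was left out in turn, in 18 and 22. miR-329-3p and miR-376b-3p passed at the acute stage only, at 0.43 and 0.44, the call of miR-329-3p holding in 3 of 7 alternatives, and miR-539-5p at neither stage, at 0.22 and -0.28. That miR-329-3p passed at 1 of these stages and not at the other is no test of a difference between stages.

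**Figure D3:**
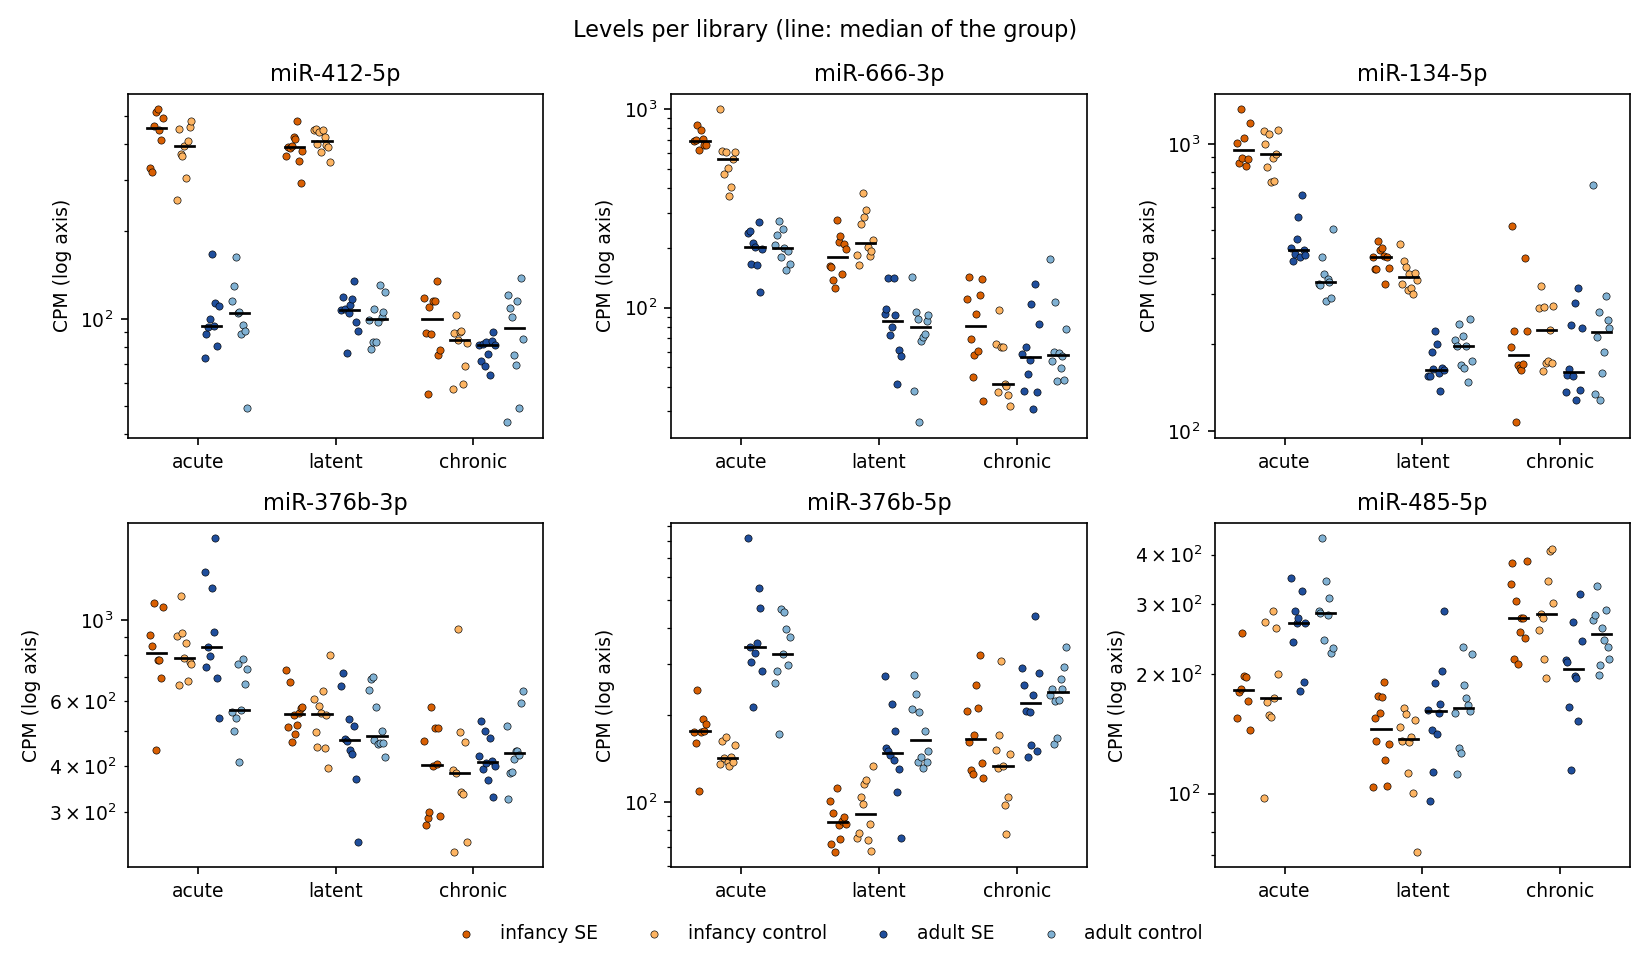
CPM of miR-412-5p, miR-666-3p, miR-134-5p, miR-376b-3p, miR-376b-5p and miR-485-5p in each library on a log axis, by stage and group (infancy SE rats, infancy controls, adult SE rats and adult controls). Acute infancy controls lie above all acute adult controls for miR-412-5p (257 to 479 against 49.4 to 163 CPM) and below all of them for miR-376b-5p (133 to 167.5 against 173 to 464 CPM).

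The acute and latent stages gave nearly the same order of members. Over the 52 members measured at both, the log2 fold changes between control groups had a Pearson correlation of 0.900 and a Spearman correlation of 0.837. Of the 36 members called at the acute stage and the 34 called at the latent stage, 29 were called at both, 28 of them higher at both. Against the chronic stage the Pearson correlations were -0.002 for the acute and -0.099 for the latent fold changes. The rats of the stages are different animals, but members share a library and a locus, so the correlations describe these data and carry no test. The order along the chromosome bore little relation to the size of the gap, with a Spearman correlation of 0.163 over 52 members at the acute stage and 0.152 over 53 at the latent stage. High and low members stood side by side. miR-412-5p, at 35.9 kb from the start of the cluster and with an acute value of 1.88, has miR-409a-3p at 1.08 before it and, past its own 3p arm, miR-369-5p at 0.01 after it. The 4 oligodendrocyte miRNAs were lower in acute infancy controls by 2.06 to 3.68 on the log2 scale. The neuronal miRNAs shared no direction, with miR-9a-5p at 0.49 and miR-124-3p at -0.80, and the rest of that list is not given here. The part of either list in the gap was not tested.

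Within a hairpin the arms did not always move together. With both arms passing, 21 hairpins could be compared at the acute stage, and in 9 of them both arms were higher in infancy than in adult controls. In 2 hairpins 1 arm was higher and the other lower. miR-376b-3p, the 3p arm of Mir376b, had 667.1, 787 and 1164 CPM in acute infancy controls, against 411.7, 569.8 and 783 CPM in acute adult controls (log2 fold change 0.44, adjusted p = 0.026 by edgeR). miR-376b-5p, from the other arm, had 133, 142 and 167.5 CPM in acute infancy controls, against 173, 325 and 464 CPM in acute adult controls. All infancy controls were below all adult controls, and the log2 fold change was -1.198 (standard error 0.19, adjusted p = 9.02e-07 by edgeR). The log2 ratio of 3p to 5p reads of Mir376b was 2.49 ± 0.30 (SD, n = 9) in acute infancy controls and 0.90 ± 0.41 (SD, n = 9) in acute adult controls, without overlap. It was 2.55 ± 0.24 (SD, n = 10) in infancy controls and 1.60 ± 0.16 (SD, n = 10) in adult controls at the latent stage, again without overlap, and 1.53 ± 0.52 (SD, n = 9) and 0.93 ± 0.27 (SD, n = 10) at the chronic stage, with overlap.

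Mir485 was the other hairpin with opposed arms. miR-485-5p, which represses the synaptic vesicle protein SV2A in rodent neurons, had 97.5, 174 and 289 CPM in acute infancy controls and 226, 285 and 439 CPM in acute adult controls. Although the ranges overlapped, 6 of 9 infancy controls were below all adult controls, and the log2 fold change was -0.58 (standard error 0.16, adjusted p = 0.00208 by edgeR). miR-485-3p had 195, 367 and 633 CPM in acute infancy controls and 147, 207 and 349.9 CPM in acute adult controls. It was higher, at 0.82 (standard error 0.19, adjusted p = 0.000227 by edgeR). The log2 ratio of 3p to 5p reads was 0.95 ± 0.22 (SD, n = 9) in acute infancy controls and -0.47 ± 0.22 (SD, n = 9) in acute adult controls, so that the more abundant arm differed between the groups in every rat. Latent-stage ratios were 0.30 ± 0.30 (SD, n = 10) and -0.39 ± 0.26 (SD, n = 10), with overlap. Mir154 had opposed arms at the latent stage, where miR-154-5p was lower (35.5, 51.3 and 61.4 CPM in infancy controls against 48.8, 67.7 and 138 CPM in adult controls, log2 fold change -0.63) and miR-154-3p higher (65.1, 87.5 and 118 CPM against 50.7, 70.2 and 103 CPM, log2 fold change 0.32). Mir666 went the other way at the acute stage, with a ratio of 4.07 ± 0.61 (SD, n = 9) in infancy controls and 5.35 ± 0.58 (SD, n = 9) in adult controls. Over all hairpins, the absolute difference in the ratio between control groups had a median of 0.31 at the acute, 0.37 at the latent and 0.46 at the chronic stage. No SE comparison at any stage separated the groups by the arm ratio of any hairpin.

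**Figure D4:**
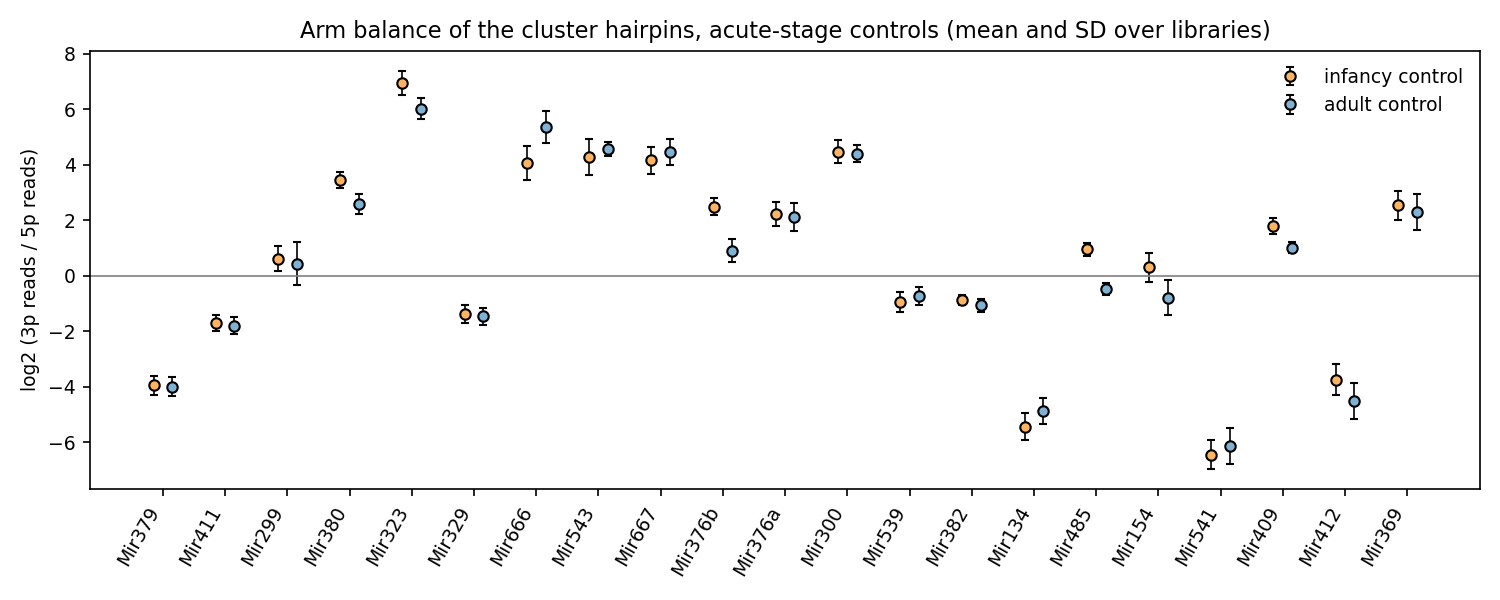
Log2 ratio of 3p to 5p reads for the 21 hairpins with both arms passing at the acute stage, in infancy controls and adult controls (points are means of 9 rats, error bars are SDs). Mir376b and Mir485 are the hairpins whose groups did not overlap, with means of 2.49 against 0.90 and 0.95 against -0.47.

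At the chronic stage, when the rats of both onset ages were adult, edgeR called 2 of 55 members between the control groups. DESeq2 called 6 (1 higher, 5 lower) and voom 17 (5 higher, 12 lower). The share of all miRNAs called was counted for edgeR only. Whether DESeq2 and voom called more of the cluster than of other miRNAs therefore cannot be said. miR-329-3p had 153, 232 and 485.04 CPM in chronic infancy controls and 102, 175 and 216 CPM in chronic adult controls. Infancy controls were above all adult controls in 6 of 9 rats, with a log2 fold change of 0.67 (standard error 0.16, adjusted p = 0.00567 by edgeR). The 3p to 5p ratio of Mir329 was -1.26 ± 0.31 (SD, n = 9) in infancy controls and -2.20 ± 0.24 (SD, n = 10) in adult controls, without overlap. miR-376b-5p, the arm that was lower at the earlier stages, had 77.7, 133 and 307 CPM in chronic infancy controls and 159, 241 and 344 CPM in chronic adult controls. It was lower in infancy controls, with 7 of 9 below all adult controls (log2 fold change -0.72, standard error 0.22, adjusted p = 0.0429 by edgeR). Without 3-S24, 3-S32 and 3-S40 only miR-329-3p was called, and with the control groups alone in the fit 0 members were called by edgeR, 8 with an unadjusted p under 0.05. Leaving out infancy control 3-S35, the highest of its group for both arms of Mir376b, raised the count to 9, and leaving out adult control 3-S7 raised it to 8. It was 5 without infancy control 3-S36 and 4 without adult control 3-S10 or infancy SE rat 3-S22.

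SE was compared with control within each onset age and stage. At 24 hours after adult-onset SE 1 of 52 members rose, while 3.66% of all 383 miRNAs changed. The median log2 fold change was 0.13 over the members and 0.00 over all miRNAs. Above 0 were 35 of 52 members, against 191 of all 383 miRNAs. miR-376b-3p had 542, 842 and 1664 CPM in acute adult SE rats, against 411.7, 569.8 and 783 CPM in acute adult controls. The groups overlapped, with 6 of 9 SE rats above all controls, and the log2 fold change was 0.66 (standard error 0.19, adjusted p = 0.0498 by edgeR). Of the 18 libraries, 12 took the call away when left out alone, the adjusted p then running from 0.0216 to 0.12 over all 18. It was also lost without a read minimum, by voom and by limma-trend, with adjusted p values from 0.00989 to 0.158 over 7 alternatives. Over all 383 miRNAs an unadjusted p under 0.05 was reached by 43 above and 37 below 0. Among the members it was reached by 10 above and 2 below 0. Of these, miR-134-5p had 392, 425.5 and 664 CPM in acute adult SE rats and 283, 328.98 and 503 CPM in acute adult controls. All 9 SE rats were above the control median, but the groups overlapped (log2 fold change 0.41, standard error 0.12, adjusted p = 0.0788 by edgeR). miR-377-3p was at 0.76 (adjusted p = 0.0766), miR-495 at 0.48 (adjusted p = 0.118) and miR-329-5p at -0.40 (adjusted p = 0.0919, all by edgeR). DESeq2 called 4 members, miR-376b-3p, miR-134-5p, miR-377-3p and miR-329-5p. Voom called 1, miR-134-5p. That member was also called with TMM factors from miRNAs outside the region and with all 4 groups in 1 fit. Without the shallow control 1-S8 edgeR called 3 (miR-376b-3p, miR-134-5p and miR-377-3p), without SE rat 1-S12 also 3 (miR-329-5p in place of miR-134-5p), and without SE rat 1-S9 it called 2. Depth was lower and miR-21-5p higher in these SE libraries, and their part in the values was not tested.

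After infancy-onset SE 0 of 52 members passed at the acute stage by edgeR or DESeq2, where 4.96% of all miRNAs did by edgeR. Voom called 1 (miR-666-3p). An unadjusted p under 0.05 was reached by 2 members, against 35 above and 26 below 0 of all 383 miRNAs. The median log2 fold change was -0.01, with 26 members on each side of 0. miR-379-5p had the lowest p, with 2848, 3988 and 5118 CPM in acute infancy SE rats and 1627, 2797 and 3746 CPM in acute infancy controls. The groups overlapped, 5 of 8 SE rats being above all controls (log2 fold change 0.47, standard error 0.16, adjusted p = 0.0997 by edgeR). miR-758-3p was at 0.39 (adjusted p = 0.298) and miR-666-3p at 0.30 (adjusted p = 0.328, both by edgeR). The log2 fold change of miR-134-5p was 0.08 (standard error 0.11). miR-21-5p was higher in these SE libraries too, as given above, and its part in the values was not tested.

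At the latent stage 0 of 53 members passed after adult-onset SE by edgeR, where 7.39% of all 406 miRNAs changed. The 6 with an unadjusted p under 0.05 were all below 0, against 62 above and 20 below 0 of all miRNAs. DESeq2 called 1 member (miR-380-5p) and voom 2. Of 53 members 46 were below 0, against 225 of all 406 miRNAs, with medians of -0.12 and -0.03. miR-380-5p had 137, 165 and 217 CPM in latent adult SE rats and 176, 205 and 282 CPM in latent adult controls. The ranges overlapped, with 7 of 10 SE rats below all controls (log2 fold change -0.36, standard error 0.12, adjusted p = 0.075 by edgeR). miR-329-5p was at -0.37 (adjusted p = 0.079) and miR-154-5p at -0.53 (adjusted p = 0.108, both by edgeR). miR-134-5p was at -0.20 (standard error 0.12). After infancy-onset SE 0 of 53 members passed by edgeR, where 0.493% of all miRNAs changed, and DESeq2 and voom each called 1, miR-300-5p. With an unadjusted p under 0.05, 2 members were above and 8 below 0, against 31 and 27 of all 406 miRNAs. miR-300-5p had 18.95, 26.3 and 28.8 CPM in latent infancy SE rats and 25.1, 33.3 and 41.4 CPM in latent infancy controls. All 10 SE rats were below the control median, and 3 were below all controls (log2 fold change -0.42, standard error 0.11, adjusted p = 0.0533 by edgeR). miR-539-3p was at -0.36 (adjusted p = 0.15) and miR-666-3p at -0.37 (adjusted p = 0.233, both by edgeR), while miR-134-5p was at 0.17 (adjusted p = 0.311 by edgeR).

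After adult-onset SE nearly all members lay below 0 at the chronic stage, and no member passed. By edgeR 0 of 55 were called, where 1.36% of all 442 miRNAs changed. Of the members 9 had an unadjusted p under 0.05, all below 0, against 34 above and 38 below 0 of all miRNAs. DESeq2 called 0 and voom 2 (miR-409a-3p and miR-369-3p). The median was -0.26 over the members and -0.09 over all miRNAs, with 53 of 55 members and 262 of all 442 miRNAs below 0. The members of one locus share their libraries and scaling, so the count of signs is a description. Leaving out 1 library moved the median between -0.31 and -0.21. miR-382-5p had 840, 910.2 and 1279 CPM in chronic adult SE rats, against 933, 1176 and 2013 CPM in chronic adult controls. The groups overlapped, with 6 of 10 SE rats below all controls (log2 fold change -0.43, standard error 0.15, adjusted p = 0.126 by edgeR). miR-369-3p had 2157, 3172 and 3777 CPM in chronic adult SE rats and 2117, 4020 and 5054 CPM in chronic adult controls. All 10 SE rats were below the control median (log2 fold change -0.35, standard error 0.13, adjusted p = 0.141 by edgeR), and without adult control 3-S10 it was the 1 member called. miR-381-5p, at a few CPM, had -0.79 (adjusted p = 0.126) and miR-539-5p, with 144, 180.1 and 207 CPM in SE rats and 144, 213 and 517 CPM in controls, had -0.54 (adjusted p = 0.191, both by edgeR). miR-485-5p, the SV2A repressor, was at -0.34 (adjusted p = 0.286) and miR-134-5p at -0.49 (adjusted p = 0.358, both by edgeR), and adult control 3-S10 had 720.5 CPM of miR-134-5p where the next control had 296 CPM. The median of the myeloid sum was higher and that of the neuronal sum lower in these SE rats, as given above, and their part was not tested.

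After infancy-onset SE the members scattered around 0 at the chronic stage. By edgeR 0 of 55 passed, where 0% of all miRNAs (0 of 442) did. With an unadjusted p under 0.05, 2 members were above 0 and 0 below, against 14 and 9 of all miRNAs. DESeq2 called 0 members, and voom 1 (miR-376a-3p). The median was 0.01, with 29 members above and 26 below 0, and without the library 3-S24 and the infancy controls 3-S32 and 3-S40 it was -0.01. miR-666-3p had 33.7, 81.1 and 143 CPM in chronic infancy SE rats and 32.1, 41.0 and 97.0 CPM in chronic infancy controls. The groups overlapped, with 9 of 10 SE rats above the control median (log2 fold change 0.74, standard error 0.27, adjusted p = 0.529 by edgeR). miR-409a-3p had 415, 609.7 and 719 CPM in SE rats and 381.8, 475 and 594 CPM in controls. Of 10 SE rats 8 were above all controls (log2 fold change 0.34, standard error 0.14, adjusted p = 0.698 by edgeR). miR-496-3p was at -0.35 (adjusted p = 0.796 by edgeR).

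**Figure D5:**
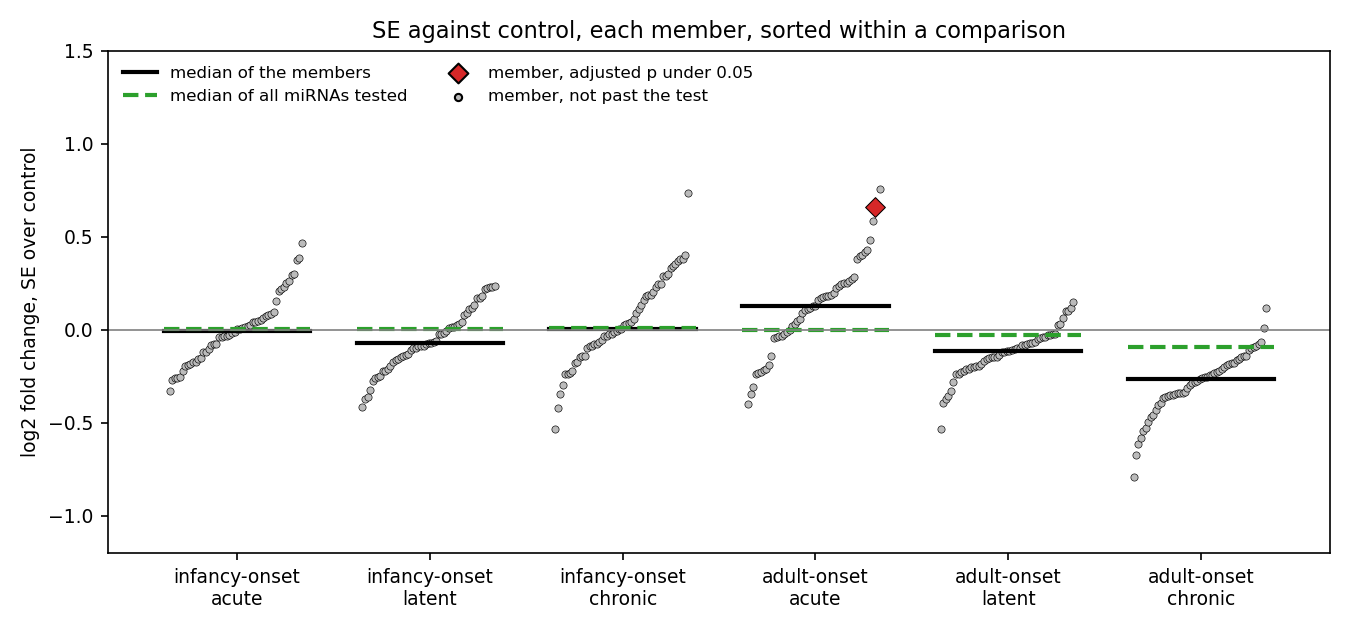
Log2 fold changes of SE rats against controls for each cluster member, by stage and onset age (points are members, lines are medians, and the diamond is miR-376b-3p, the 1 member called). The medians are -0.01, -0.07 and 0.01 after infancy-onset SE and 0.13, -0.12 and -0.26 after adult-onset SE at the acute, latent and chronic stages.

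Whether the SE change differed between onset ages was tested by subtracting the change after infancy-onset SE from that after adult-onset SE. By edgeR 0 members passed at each stage, where 0.261%, 3.2% and 0.905% of all miRNAs did at the acute, latent and chronic stages. An unadjusted p under 0.05 was reached by 5, 1 and 5 members. Over all miRNAs it was reached by 24, 38 and 17 above 0 and by 26, 12 and 21 below 0. DESeq2 called 0 at each stage, and voom 0, 0 and 12. At the chronic stage 48 of 55 members were below 0, against 233 of all 442 miRNAs, with medians of -0.26 and -0.03. The member median was -0.33 without 3-S24, 3-S32 and 3-S40, where edgeR again called 0. miR-409a-3p had the lowest chronic-stage p with all libraries, at -0.62 (standard error 0.20, adjusted p = 0.143 by edgeR), with -0.34 after adult-onset and 0.34 after infancy-onset SE. At the acute stage miR-376b-3p had the lowest p, at 0.67 (standard error 0.25, adjusted p = 0.272 by edgeR), with changes of 0.66 after adult-onset and -0.03 after infancy-onset SE. The lowest latent-stage p belonged to miR-134-5p, at -0.37 (standard error 0.13, adjusted p = 0.126 by edgeR), with -0.20 and 0.17. No difference between onset ages is therefore shown for any member by this test.

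The Dlk1-Dio3 region also holds miRNAs outside the cluster, among them miR-127, miR-433, miR-341 and miR-770, of which 21, 22 and 23 mature arms passed at the 3 stages. In the comparison of control groups 14 were higher and 1 lower at the acute stage (median 0.65), 14 higher and 0 lower at the latent stage (median 0.45), and 0 were called by edgeR at the chronic stage, 5 with an unadjusted p under 0.05 (median -0.16). The cluster's own medians were 0.52, 0.35 and -0.12. miR-770-3p had the largest gap of these at both early stages, with log2 fold changes of 2.35 and 1.83. After SE only miR-127-3p, whose gene lies opposite Rtl1, was called, at the latent stage after adult-onset SE (log2 fold change -0.38, standard error 0.12, adjusted p = 0.0482 by edgeR). Of the 23 chronic-stage arms, 20 lay below 0 after adult-onset SE, with a median of -0.23. The rest of the miRNAs, outside the region, had medians of -0.13, -0.11 and 0.03 between control groups at the acute, latent and chronic stages, and of -0.02 after adult-onset SE at the chronic stage.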

How the data were processed

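The deposited count tables, 1 per stage, give raw reads per mature miRNA. Per the study's methods, the authors found adapters with Kraken and trimmed them with Cutadapt, kept reads of 16 to 28 bases, and matched them to rat miRBase sequences with up to 1 mismatch by seqBuster. The deposited signal columns hold normalized reads that the authors made with DESeq2 (version 1.16.1 per the submitters' notes). Columns of 114 libraries were used, and 6 labelled libraries without a column were not analysed here. The labels put 11 acute adult libraries in the SE group and 9 in the control group, where the series' design text gives 10 and 10, and the labels were followed.

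miRNAs with more than 500 raw reads summed over a stage were tested with edgeR (4.0.16, R 4.3.3) by the quasi-likelihood F test after TMM scaling, with a Benjamini-Hochberg adjusted p threshold of 0.05. SE comparisons were fitted on the groups compared, and control comparisons and differences between onset ages on all 4 groups of a stage. Alternatives used DESeq2 1.42.0 and limma 3.58.1 (voom, and limma-trend on log2 of normalized reads plus 1). The code was tested on simulated data. Arm ratios are log2 of 3p over 5p reads, with 0.5 reads added to each. Sequences and positions are from RefSeq (GRCr8), and pandas 2.3.3 and matplotlib 3.10.9 were used for tables and plots.

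The members and the lists were chosen with earlier results of these data known. Members named with values are those called in an SE comparison, or the 3 with the lowest p where no member was called, the 6 largest changes among calls between control groups, and a fixed list that includes miR-134-5p. miR-377-3p, miR-329-5p, both arms of Mir154 and Mir485, miR-369-5p and miR-376b-5p at the early stages were added after their values were seen. Each library was taken as 1 rat, so n counts rats.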

Additional observations from a re-analysis of the deposited data

Results flagged for a closer look

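A value is given here when the highest or lowest library of a group of 8 to 10 stood apart from the others by Dixon's criterion. Of 392 groups of values for named members and the cluster share, 35 (8.93%) did. Chance gives about 1 in 20 only for independent, normally distributed values. The members share libraries and the shape of their CPM values was not checked, so no excess over chance can be read from the 35. No explanation was tested.

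Chronic adult control 3-S10 was the highest of its group for 6 members, with 720.49 CPM of miR-134-5p, 1354.3 CPM of miR-376a-3p, 128.09 CPM of miR-758-3p, 176.12 CPM of miR-666-3p, 1136.8 CPM of miR-329-5p and 2013.4 CPM of miR-382-5p. Acute adult SE rat 1-S2 was the highest for miR-412-3p (11.688 CPM), miR-412-5p (166.98 CPM), miR-369-3p (5254.8 CPM) and miR-496-3p (225.42 CPM). Acute adult control 1-S15 was the highest for miR-410-3p (1052.9 CPM), miR-543-3p (1336.9 CPM) and miR-323-3p (2404.7 CPM). Latent infancy control 2-S40 was the highest for miR-410-3p (1629.3 CPM) and miR-539-3p (259.46 CPM) and the lowest for miR-382-5p (730.39 CPM). Acute infancy SE rat 1-S24 had the highest cluster share of its group, 5.384% of miRNA reads, and the highest miR-758-3p, 504.68 CPM. Chronic infancy control 3-S35 was the highest for both arms of Mir376b, with 946.26 CPM of miR-376b-3p and 307.25 CPM of miR-376b-5p. Acute infancy control 1-S37 was the highest for miR-539-5p (710.06 CPM) and miR-154-5p (218.48 CPM).

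Single values stood apart in further libraries. Among the highest at the acute stage were 1299.9 CPM of miR-376a-3p in infancy control 1-S34, 998.72 CPM of miR-666-3p in infancy control 1-S32, 625.82 CPM of miR-539-5p in adult SE rat 1-S1 and 1281.3 CPM of miR-495 in adult control 1-S8. At the latent stage they were 81.577 CPM of miR-154-5p in infancy SE rat 2-S29, 592.94 CPM of miR-329-3p in adult SE rat 2-S18, 8.4395 CPM of miR-666-5p in adult SE rat 2-S20 and 887.38 CPM of miR-409a-3p in adult control 2-S9. At the chronic stage they were 342.85 CPM of miR-539-5p in infancy SE rat 3-S22 and 441.47 CPM of miR-376b-5p in adult SE rat 3-S3. The lowest values that stood apart were 17.852 CPM of miR-376c-3p in chronic infancy SE rat 3-S24, 537.57 CPM of miR-323-3p in chronic infancy SE rat 3-S29 and 302.42 CPM of miR-409a-3p in chronic adult control 3-S7.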

How the results depend on the processing

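No named member that was called was called in the opposite direction under any alternative. Some medians near 0 did change sign. That of the acute difference between onset ages was 0.083, and -0.008 by voom. After infancy-onset SE it was -0.005 at the acute stage, and 0.015 by voom. At the chronic stage it was 0.006, and -0.026 by limma-trend. Counts are of members called, and the share of all miRNAs called was counted for the main edgeR fits only. Adult-onset SE at the acute stage gave 1, against 3 with TMM factors from miRNAs outside the region, 0 without a read minimum, 4 by DESeq2, 0 by limma-trend, 4 by the study's thresholds (unadjusted p under 0.05 and a fold of 1.4) and 5 with all 4 groups in 1 fit. Voom also gave 1, but miR-134-5p in place of miR-376b-3p. Infancy-onset SE at the acute stage gave 0, against 1 by voom. At the latent stage adult-onset SE gave 0, against 1 with the outside factors, 1 by DESeq2, 2 by voom, 1 by the study's thresholds and 3 with all 4 groups, and infancy-onset SE gave 0, against 1 with median-of-ratios factors, the outside factors, DESeq2 and voom. At the chronic stage adult-onset SE gave 0, against 2 by voom and 2 by the study's thresholds, and infancy-onset SE gave 0, against 1 by each of these. The chronic control groups gave 2, against 6 by DESeq2, 17 by voom, 8 by the study's thresholds, 0 with the control groups alone and 1 without 3-S24, 3-S32 and 3-S40, an alternative chosen after seeing the data. The difference between onset ages gave 0, against 4 at the acute and 3 at the chronic stage by the study's thresholds and 12 at the chronic stage by voom. Control comparisons at the acute and latent stages gave 36 and 34 calls, and 29 to 40 and 23 to 38 under the alternatives.

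Leaving out 1 library gave 0 to 3 (3 without 1-S8 or 1-S12) and 0 to 1 calls after adult-onset and infancy-onset SE at the acute stage, 0 to 1 in both at the latent stage, 0 to 1 (1 without 3-S10) after adult-onset SE at the chronic stage, 1 to 9 for the chronic control groups, and 0 to 1 (1 without 3-S7) for the chronic difference between onset ages. Of the acute and latent control calls, 32 and 29 held without any 1 library and under every alternative other than the study's thresholds. Scaling by miRNAs outside the region moved the median of all miRNAs in the acute control comparison by 0.11, to 0.15, and that of the members to 0.64. Outside miR-9a-5p the acute ratio of cluster shares was 1.89, against 1.64. No paired analysis was possible because the rats of the groups are different animals and their replicate numbers only name them. Depth limits the scarce members, such as miR-666-5p and miR-412-3p.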
